A study of Mus musculus with 27 samples.

Results

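Solute carriers are the largest superfamily of membrane transporters, and the mouse genes for them carry symbols made of Slc, a family number, the letter a and a member number. The genes described here are those of such a symbol whose mean level over all 27 libraries was at least 10 CPM (counts scaled to a common library total), leaving out 9 transporters of iron, arginine, glucose and lactate (Slc40a1, Slc11a1, Slc11a2, Slc7a2, Slc2a1, Slc2a3, Slc2a6, Slc16a1 and Slc16a3). Of 350 matching symbols among 41388 gene identifiers, 133 met the rule, 208 lay below the limit and 9 were left out by name. Of the 133, 130 are transporters or their subunits by name. The other 3 share the naming pattern only: Slc9a3r1 encodes a scaffold protein, Slc7a6os is named for lying opposite Slc7a6, and Slc4a1ap encodes an adaptor protein. The genes were thus chosen by their mean level, and not by a difference between groups. Slc7a6 at 10.7, Slc16a9 at 10.5 and Slc22a17 at 10.1 lay just inside the limit, and Slc24a3 at 9.28, Slc52a3 at 9.22 and Slc9a3r2 at 8.45 just outside. A gene could pass through high levels in a few libraries, so the main counts of called genes below are set beside the share of all genes that met the same limit.

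The RNA came from macrophages sorted from the dura mater, the outer membrane around the brain, of Rag1 ko mice on the B6 background aged 16 to 19 weeks. Mice without Rag1 make no T or B cells, and every group shares that deletion. Per the labels, 6 groups were studied 6.5 weeks after T-cell transfer, and their donor T cells were Tbet ko (2 libraries, both female), IFNg ko (2, female), IL17AF ko (2, female), IL6Ra ko/IL21R ko (7, of which 3 female), IL22 ko (3, of which 2 female) or total B6 T cells (5, of which 4 female). The last group had no transfer (6 libraries, 4 female). The knockouts were in the transferred T cells, not in the macrophages, so the counts cannot check them. The comparisons address what T cells, and T cells that lack a cytokine, cytokine receptors or the transcription factor Tbet, change in the macrophages that live beside them.

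Some solute carriers swap amino acids, ions or nucleosides across the plasma membrane, some load or empty endosomes and lysosomes, and those of family 25 sit in the inner mitochondrial membrane and carry metabolites, nucleotides and phosphate. Several amino acid carriers work as pairs, in which Slc3a2 is the heavy chain that brings a light chain of family 7 to the cell surface. Macrophages use such carriers to feed on and export amino acids and metals, to set the pH of their vesicles and to move bacterial peptides out of lysosomes.

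Library totals ran from 6902602 to 19966749 counts. Which surface markers defined the sort was not stated in the labels. The summed level of 10 macrophage markers such as Csf1r and Cd68 was 18140 to 26510 CPM in every library, and none of the 10 was at 0. Lyz2 had the highest group means of the 10, from 6759 CPM with IFNg ko to 13820 CPM with total T cells. Single markers moved in opposite ways. With no T cells Lyz2 averaged 8945 CPM, while Csf1r averaged 3442 CPM with total T cells and 4656 CPM with no T cells. The libraries fell into 3 sets by their share of ribosomal protein counts. Set A (over 20000 CPM) held 3 total T-cell and 4 no T-cell libraries. Set C (under 9000 CPM) held all Tbet ko, IFNg ko and IL17AF ko libraries and the library M4 of the IL6Ra/IL21R ko group, and set B held the other 13. The groups in set C can therefore not be told apart from their set. Fibroblast marker genes moved with the sets: the summed level of 10 of them, none of which was at 0 in a whole group, was 2420 to 4073 CPM in the Tbet ko, IFNg ko and IL17AF ko libraries, 4151 CPM in M4, 406 to 1237 CPM in the other IL6Ra/IL21R ko libraries, 596 to 801 CPM with IL22 ko, 276 to 450.2 CPM with total T cells and 473 to 1572 CPM with no T cells. Summed levels elsewhere were 39.7 to 408 CPM for endothelial, 0.0 to 1893 for neutrophil, 5.26 to 453 for erythroid, 7.50 to 303 for mast cell, 56.2 to 237 for T cell, 165 to 803 for B cell, 114 to 313 for dendritic cell and 975 to 5683 for microglia markers. In bulk RNA, fewer cells of a type and less RNA per cell cannot be told apart.

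Per kilobase of exons, the level of the 133 genes ran from 0.953 to 179.8 CPM, with a median of 7.20. The highest per-length level was that of Slc3a2, the shared heavy chain. Next came the mitochondrial ADP/ATP carrier Slc25a5 with 133.4 CPM per kilobase and the mitochondrial phosphate carrier Slc25a3 with 65.7. The leading gene of each other class was the zinc importer Slc39a1 (57.8), the endosomal sodium/proton exchanger Slc9a9 (57.0), the nucleoside carrier Slc29a1 (50.8), the haem carrier Slc48a1 (44.0), the sugar carrier Slc50a1 (21.9), Slc35a4 of the nucleotide-sugar carrier family (21.8), the dicarboxylate carrier Slc13a3 (14.0) and the choline carrier-like Slc44a1 (11.1). Summed over all 133 genes, the level lay within 9619 to 10290 CPM in the Tbet ko, IFNg ko and IL17AF ko groups, 8830 to 9564 with IL6Ra/IL21R ko, 8793 to 9998 with IL22 ko, 9079 to 10040 with total T cells and 8225 to 9077 with no T cells. The total T-cell range lay just above the no T-cell range.

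With total T cells against no T cells, 30 of the 133 genes were higher and 22 lower at an adjusted p (q) under 0.05 of edgeR's quasi-likelihood test. Values given as x ± y are log2 fold changes with their SE unless an SD is named. The calls are 39.1% of the genes, beside 21.0% of the 12682 genes tested and 27.3% of the genes with a mean of at least 10 CPM. By direction, 11.6% of all genes tested were higher and 9.36% lower. Carriers of cystine, zinc, copper, lysosomal peptides and mitochondrial metabolites were among those that rose. An anion carrier, a proton/organic cation exporter, bicarbonate and phosphate carriers, vitamin carriers and the nucleoside carrier Slc29a1 were among those that fell. The median log2 fold change was 0.08 over the 133 genes and -0.02 over all genes tested. The groups did not overlap in 25 of the 52 called genes, and the like share of all called genes was not counted. Within set A alone, all 52 kept their sign and 41 of the 133 genes passed the test, beside 16.2% of all genes. In set B, with 2 libraries a side, 50 kept their sign. There 2 passed (Slc25a24 higher and Slc47a1 lower), beside 0.745% of all genes. These libraries were also part of the test that chose the 52 genes, so the kept signs are not independent of it. Scaled by library totals alone, the median of all genes moved to -0.16 and the split became 19 higher and 32 lower. Within set A the split was 26 higher and 15 lower.

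**Figure D1:**
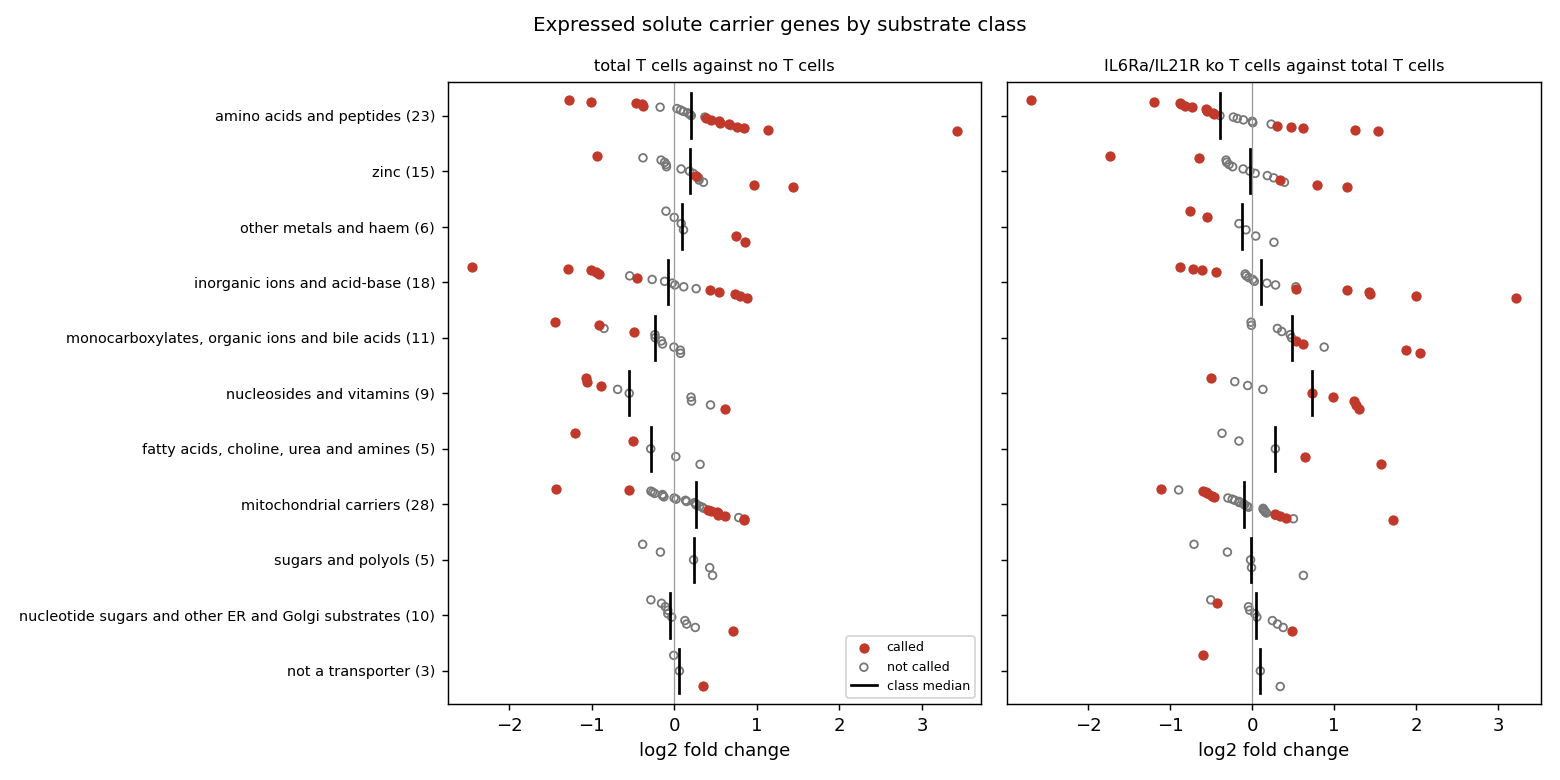
Log2 fold change of each of the 133 genes (points, in rows by substrate class, number of genes in parentheses) with total T cells against no T cells (left) and with IL6Ra/IL21R ko against total T cells (right). Filled points passed the test, open points did not, and black bars are class medians: the widest spreads are in amino acids and in inorganic ions, while sugars hold no filled point on either side.

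All 10 markers of monocyte-derived cells were higher, with a summed level of 1932 to 8988 CPM with total T cells and 724 to 1336 CPM with no T cells. Of 11 border macrophage markers 9 were lower, at 10720 to 28150 CPM with total T cells and 27720 to 34770 CPM with no T cells, and 2 of 9 tested fibroblast markers were lower. Of 9 microglia markers 6 were lower, with a summed level of 975 to 2718 CPM with total T cells and 3097 to 4487 CPM with no T cells. Dendritic cell markers were mixed (3 higher and 1 lower of 10), as were endothelial markers (1 higher and 1 lower of 10) and macrophage markers (4 higher and 1 lower of 10). The part of all these markers in the results below was not tested.

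Of the 23 amino acid and peptide carriers, 9 were higher with total T cells, 5 were lower and 9 did not pass, with a class median of 0.21. This is 60.9% called, beside 27.3% of genes with a mean of at least 10 CPM. With library totals the class split 5 higher and 6 lower. Slc7a11 is the light chain that, with Slc3a2, takes up cystine in exchange for glutamate and so feeds glutathione synthesis. It stood at 93.3, 39.8, 15.6, 28.7 and 75.8 CPM in the total T-cell libraries F1 to F4 and M1, and the no T-cell libraries ran from 0.239 through a median of 4.89 to 11.01 CPM. All 5 total T-cell libraries lay above all 6 others, and the highest were in set A. The log2 fold change was 3.42 ± 0.80 (SE; q = 0.00342), the largest rise among the 133 genes, and it was 3.89 in set A alone (q = 0.0259) and 2.18 in set B alone (q = 0.248). The heavy chain Slc3a2 averaged 737 ± 48.3 CPM with total T cells and 567.5 ± 94.2 CPM with no T cells (SD, n = 5 and 6), a log2 fold change of 0.38 ± 0.12 (q = 0.0281) with overlapping groups.

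The window around the start of Slc7a11 is shown because this gene, on chromosome 3 at 49892526 to 50443614 on the minus strand of GRCm38, rose most and is a known target of the amino acid response, in which ATF4 pairs with a C/EBP factor on a composite element. The sequence is RefSeq's for GRCm38.p6, chr3:50443564-50443863 on the minus strand, read 5′ to 3′ from 250 bases before to 50 after the start. Capitals mark the letters TGATGNAA found on either strand.
Slc7a11: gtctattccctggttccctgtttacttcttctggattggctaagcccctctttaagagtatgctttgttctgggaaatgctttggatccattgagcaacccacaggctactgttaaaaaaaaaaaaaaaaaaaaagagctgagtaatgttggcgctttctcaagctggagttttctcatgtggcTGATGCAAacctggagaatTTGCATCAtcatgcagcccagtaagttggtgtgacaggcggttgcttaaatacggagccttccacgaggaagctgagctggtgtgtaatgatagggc
The 2 matches begin 66 and 47 bases before the start, with no overlap between them. At least 1 match lies in 3.97% of 32851 such windows of all genes and in 3.62% of the 138 windows of the 101 genes of the list that matched the table by symbol, and 2 or more lie in 0.07% of all windows. A match of letters is a description and says nothing of binding.

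Of the peptide carriers of family 15, Slc15a3 rose, Slc15a2 fell and Slc15a4, another carrier of endolysosomes, did not pass, with 61.5 to 97.7 CPM with total T cells and 49.8 to 101.2 CPM with no T cells. Slc15a3, which exports histidine and small bacterial peptides out of endolysosomes, had 482, 386, 329.9, 306 and 506 CPM in the total T-cell libraries F1 to F4 and M1, against 123 to 246 CPM with a median of 188 in the no T-cell libraries. The groups did not overlap, and the log2 fold change was 1.13 ± 0.17 (q = 7.6e-05), with 1.47 in set A (q = 0.0022) and 0.49 in set B (q = 0.095). Of its exons 28.1% overlap Tmem132a on the opposite strand, which averaged 30.8 CPM, and the library kit does not mark strand. Slc15a2, the peptide carrier of the plasma membrane, had 10.04 to 37.6 CPM with total T cells and 39.9 to 93.6 CPM with no T cells. It was lower, at -1.27 ± 0.34 (q = 0.0102), again without overlap.

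Among the other amino acid carriers, the light chain Slc7a6 for basic and neutral amino acids rose by 0.84 ± 0.22 (q = 0.00741), the glutamine importer Slc38a1 by 0.66 ± 0.15 (q = 0.00263) and the glutamine exchanger Slc1a5 by 0.44 ± 0.15 (q = 0.0314). Slc36a4, Slc16a10, which carries aromatic amino acids, and Slc38a6 rose by 0.54 to 0.76. The creatine carrier Slc6a8 averaged 7.35 ± 4.13 CPM with total T cells and 14.2 ± 3.93 CPM with no T cells (SD), a log2 fold change of -1.001 ± 0.29 (q = 0.0153) that no longer passed without the library M1 of the total T-cell group. The light chain Slc7a8 and the carriers Slc38a7 and Slc38a10 fell by 0.38 to 0.46 on the log2 scale. Taurine is carried by Slc6a6, among the most abundant of the class per length, and it had 384 to 513 CPM with total T cells and 346 to 436 CPM with no T cells and did not pass the test. Neither did the amino acid carriers Slc38a2, Slc7a1 and Slc7a5.

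Zinc carriers of family 30 move zinc out of the cytosol and those of family 39 move it in. Of 15 zinc carriers 3 were higher, 1 was lower and 11 did not pass. The called share was 26.7%, beside 27.3% of genes with a mean of at least 10 CPM. Slc30a1, the zinc exporter of the plasma membrane, had 150.7, 77.1, 70.7, 85.5 and 159 CPM in the total T-cell libraries F1 to F4 and M1, and 34.2 to 54.4 CPM with a median of 39.8 in the no T-cell libraries. No library of either group reached the other, and the 2 highest, F1 and M1, belong to set A. The log2 fold change was 1.43 ± 0.26 (q = 0.000439), with 1.67 in set A (q = 0.0037) and 0.96 in set B (q = 0.159). The importer Slc39a14, which also takes up manganese and iron not bound to transferrin, rose by 0.96 ± 0.23 (q = 0.00375). Its levels spanned 26.2 to 40.3 CPM over the total T-cell libraries and 13.5 to 22.6 CPM over the no T-cell libraries. Slc39a1, the importer with the most counts per length, rose by 0.27 ± 0.09 (q = 0.0352). Slc39a8, a zinc and manganese importer of the plasma membrane and lysosome, averaged 8.31 ± 5.68 CPM with total T cells and 15.5 ± 2.70 CPM with no T cells (SD) and was lower, at -0.93 ± 0.34 (q = 0.0491).

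The start of Slc30a1 (chromosome 1, 191906767 to 191913247, plus strand) is shown because this exporter is a known target of the zinc-sensing factor MTF1, which binds metal response elements. The window is chr1:191906531-191906830 on the plus strand of GRCm38.p6 from RefSeq. Capitals mark the core letters TGCACNC or TGCGCNC searched on both strands, here found on the opposite strand as GAGTGCA and GAGCGCA.
Slc30a1: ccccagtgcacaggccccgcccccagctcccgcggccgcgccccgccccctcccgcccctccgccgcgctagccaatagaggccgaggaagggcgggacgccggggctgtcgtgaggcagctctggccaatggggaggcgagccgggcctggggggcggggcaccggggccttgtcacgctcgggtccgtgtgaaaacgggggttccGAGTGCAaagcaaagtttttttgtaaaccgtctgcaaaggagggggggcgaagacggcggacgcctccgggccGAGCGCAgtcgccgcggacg
Counted from the RefSeq start that the window is built on, which lies inside the gene's coordinates above, one match begins 43 bases before it and the other 30 after it, and they do not overlap. At least 1 match was found in 25.7% of all windows and in 37.0% of the windows of the list, and 2 or more in 7.11% of all windows.

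Both copper carriers rose. The high-affinity importer Slc31a1 had 211, 121, 102, 119.7 and 207 CPM in the total T-cell libraries F1 to F4 and M1, and 61.8 to 97.1 CPM with a median of 87.8 with no T cells. The groups did not overlap, and the log2 fold change was 0.85 ± 0.15 (q = 0.000369). It was 1.22 in set A (q = 0.00481) and 0.19 in set B (q = 0.6). Its relative Slc31a2, which helps copper leave endosomes, rose by 0.75 ± 0.13 (q = 0.000246) with overlapping groups. None of the other 4 metal and haem carriers passed, among them the haem carrier Slc48a1 and the magnesium carrier Slc41a1.

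Mitochondrial carriers were mostly higher where they passed: 8 of 28 rose, 2 fell and 18 did not pass, with a class median of 0.26. The called share was 35.7%, beside 27.3% of genes with a mean of at least 10 CPM. With library totals 4 were higher and 5 lower. The ADP/ATP carrier Slc25a5 had 497, 391, 230.0, 274 and 491 CPM in the total T-cell libraries F1 to F4 and M1, and 174 to 269.8 CPM with a median of 204 in the no T-cell libraries. The libraries of set A were the high ones, and F3 lay within the range of the no T-cell group. Its log2 fold change was 0.84 ± 0.16 (q = 0.000834), with 1.00 in set A (q = 0.00428) and 0.48 in set B (q = 0.118). Slc25a20, which brings acylcarnitines in for fatty acid oxidation, rose by 0.85 ± 0.19 (q = 0.00211), and the phosphate carrier Slc25a3 by 0.52 ± 0.10 (q = 0.00054), neither with overlap. The aspartate/glutamate carrier Slc25a12, the oxoglutarate carrier Slc25a11, the glutamate carrier Slc25a22 and the ATP-Mg/phosphate carriers Slc25a24 and Slc25a25 rose by 0.41 to 0.61. Another ATP-Mg/phosphate carrier, Slc25a23, went the other way with -1.43 ± 0.34 (q = 0.00411): its levels were 3.80, 2.93, 13.3, 11.7 and 2.04 CPM with total T cells and 10.2 to 24.2 CPM with no T cells, and the 3 lowest libraries are those of set A. The NAD carrier Slc25a51 fell by 0.55 ± 0.08 on the log2 scale (q = 8.61e-05). Slc25a3 and Slc25a5 have processed copies in the genome, and how reads shared with those were counted was not stated.

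Carriers of inorganic ions were split, with 5 of 18 higher, 6 lower and 7 not called, and 4 higher and 8 lower with library totals. In the main test 61.1% of the class was called, beside 27.3% of genes with a mean of at least 10 CPM. The largest fall among the 133 genes was that of Slc26a7, an anion exchanger and chloride channel (chromosome 4, 14502430 to 14621805, minus strand). It had 2.10, 1.13, 0.208, 3.64 and 1.88 CPM in the total T-cell libraries F1 to F4 and M1, and 3.81 to 16.0 CPM with a median of 10.01 in the no T-cell libraries. The groups did not overlap, and the log2 fold change was -2.45 ± 0.47 (q = 0.000728), with -2.49 in set A (q = 0.0143) and -2.41 in set B (q = 0.0963). The sodium-driven bicarbonate carrier Slc4a10 had 4.34 to 10.9 CPM with total T cells and 10.95 to 21.9 CPM with no T cells (-1.28 ± 0.35, q = 0.0109). The phosphate importers went opposite ways: Slc20a1 rose by 0.55 ± 0.13 (q = 0.00512), and Slc20a2 was lower, at -1.01 ± 0.23 (q = 0.00285). The sodium-potassium-chloride importer Slc12a2 was lower, at -0.91 ± 0.21 (q = 0.00301), and so was the endosomal exchanger Slc9a9, at -0.94 ± 0.23 (q = 0.00536). Slc9a9 averaged 164.7 ± 82.8 CPM with total T cells and 302.5 ± 51.0 CPM with no T cells (SD). Those that rose were the sulfate carrier Slc26a2 (0.88 ± 0.14, q = 0.000119), Slc12a9 of the cation-chloride cotransporter family (0.80 ± 0.13, q = 0.000208), the sodium-bicarbonate carrier Slc4a7 (0.73 ± 0.12, q = 0.00016) and the sodium-calcium exchanger Slc8a1 (0.43 ± 0.15, q = 0.0413).

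**Figure D2:**
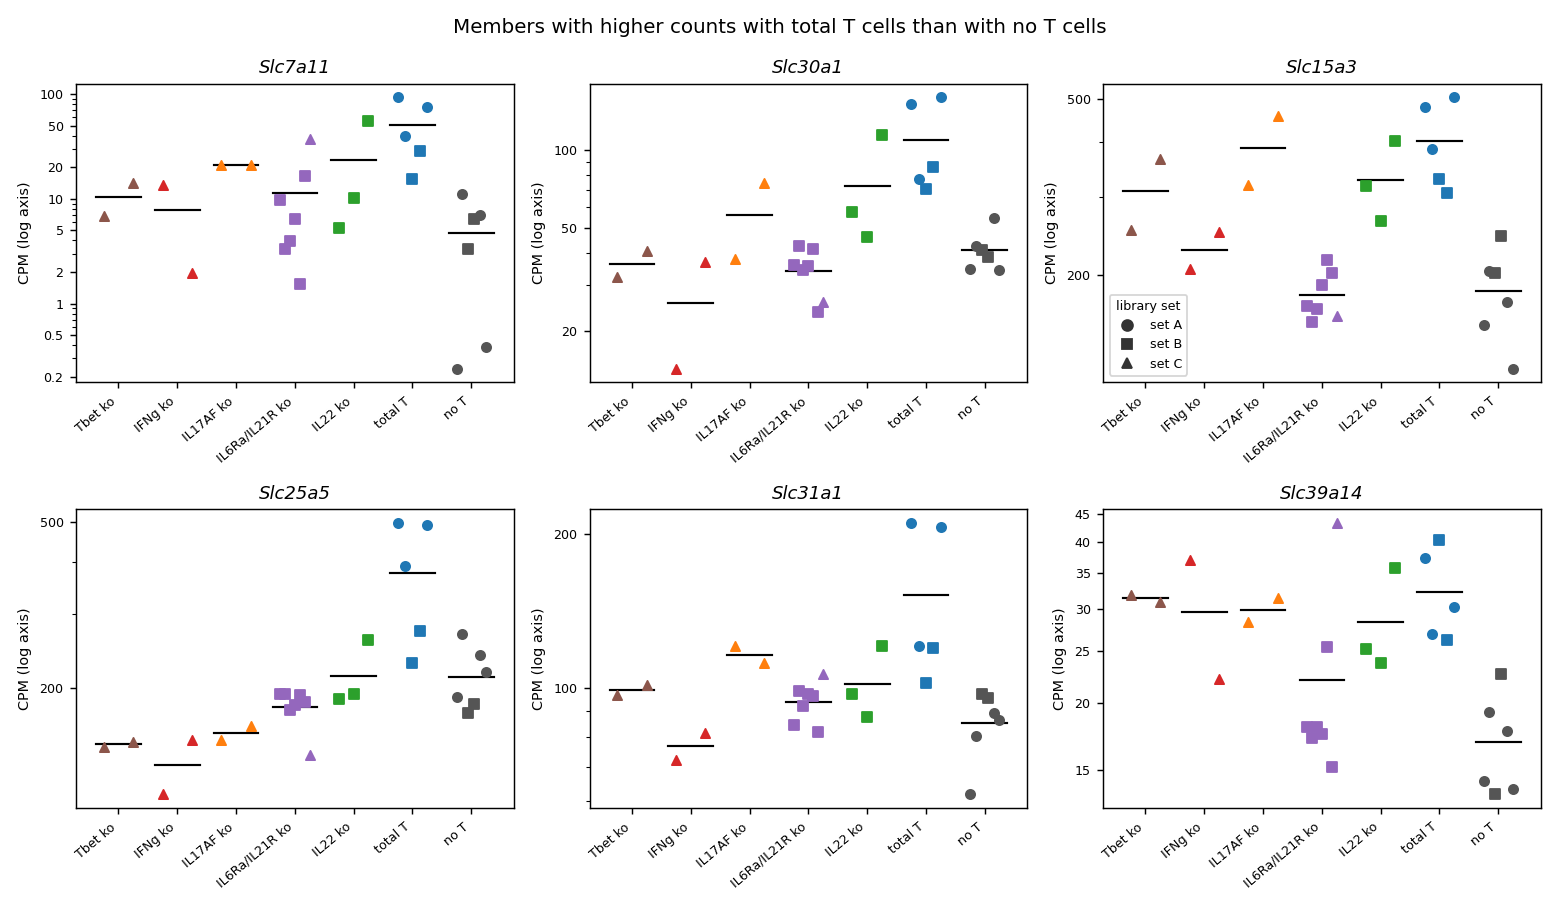
CPM (log axis) of 6 genes that were higher with total T cells than with no T cells, 1 point per library, by group of donor T cells, with point shapes for the library set and bars for group means. The total T-cell libraries of Slc7a11, Slc30a1, Slc15a3, Slc31a1 and Slc39a14 all lie above the no T-cell libraries, while in Slc25a5 the groups overlap.

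The classes of organic ions, vitamins and lipids had more falls than rises. Of 11 carriers of monocarboxylates, organic ions and bile acids none rose and 3 fell, with a class median of -0.23. That called share, 27.3%, is the same as the 27.3% of genes with a mean of at least 10 CPM. Slc47a1 exports organic cations in exchange for protons and is also known as a marker of meningeal fibroblasts. It had 5.33 to 8.41 CPM with total T cells and 2.03, 16.7, 21.5, 21.8, 25.3 and 32.0 CPM in the 6 no T-cell libraries, a log2 fold change of -1.44 ± 0.42 (q = 0.0174), with -0.98 in set A (q = 0.284) and -2.25 in set B (q = 0.0296). The library M1 of the no T-cell group, at 2.03 CPM, lay below all total T-cell libraries, and the other 5 lay above them. Slc16a9, a carrier of carnitine and creatine, was lower, at -0.91 ± 0.27 (q = 0.0161), as was Slc16a7, a pyruvate and lactate carrier, at -0.49 ± 0.15 (q = 0.0189). Slc13a3, the dicarboxylate carrier with the most counts per length in the class, did not pass.

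Nucleoside and vitamin carriers had the lowest class median, -0.54, with 1 of 9 higher, 3 lower and 5 not called. This is 44.4% called, beside 27.3% of genes with a mean of at least 10 CPM. The low median came mainly from set A, where it was -0.93. In set B alone it was -0.06 with no call, and other classes stood lower, among them fatty acids, choline, urea and amines at -0.18. Slc29a1, which lets nucleosides such as adenosine cross the plasma membrane in either direction, had 60.1, 126, 179, 162 and 75.8 CPM in the total T-cell libraries F1 to F4 and M1, against 192 to 262 CPM with a median of 204.0 in the no T-cell libraries. The groups did not overlap (-0.89 ± 0.19, q = 0.0016), and the value was -1.22 in set A (q = 0.01) and -0.56 in set B (q = 0.125). The biotin and pantothenate importer Slc5a6 was lower, at -1.05 ± 0.21 (q = 0.000834), with 8.28 to 10.1 CPM with total T cells and 14.7 to 25.4 CPM with no T cells. Its exons overlap by 9.92% with Atraid on the opposite strand, which averaged 58.9 CPM, and the kit does not mark strand. The lysosomal carrier Slc46a3 was lower, at -1.07 ± 0.25 (q = 0.00404). The concentrating nucleoside importer Slc28a2 rose by 0.62 ± 0.14 (q = 0.00226). In the class of fatty acids, choline, urea and amines 2 of 5 fell, the urea carrier Slc14a1 (-1.20 ± 0.40, q = 0.034) and Slc44a1 (-0.50 ± 0.17, q = 0.0348). Slc14a1 lost its call without any of 5 libraries in turn, F1, F4 or M2 of the no T-cell group and F1 or M1 of the total T-cell group.

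Sugar carriers and carriers of the endoplasmic reticulum and Golgi had the fewest calls. None of the 5 sugar and polyol carriers passed, among them Slc2a9, a urate and sugar carrier with 11.3 to 18.8 CPM with total T cells and 9.92 to 15.8 CPM with no T cells. Of 10 carriers of nucleotide sugars and other endoplasmic reticulum and Golgi substrates 1 rose, the acetyl-CoA carrier Slc33a1, by 0.71 ± 0.16 (q = 0.00287). Slc35a4, the leading gene of that class, had 61.6 to 87.1 CPM with total T cells and 64.0 to 91.4 CPM with no T cells. The scaffold gene Slc9a3r1 rose by 0.35 ± 0.12 (q = 0.0302).

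**Figure D3:**
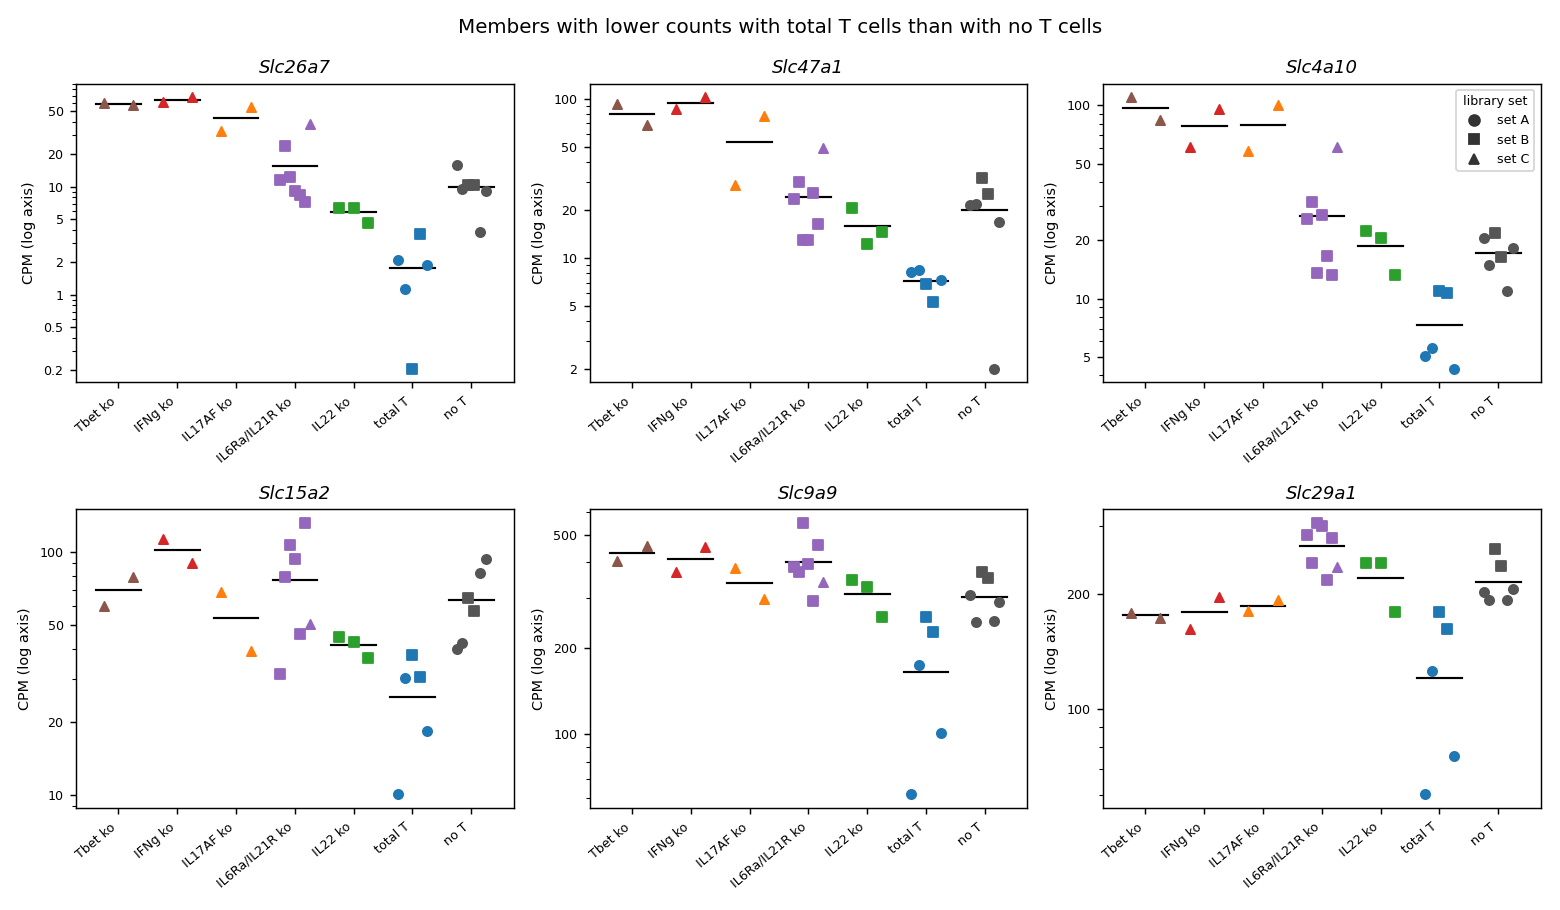
CPM (log axis) of 6 genes that were lower with total T cells than with no T cells, 1 point per library, by group, with point shapes for the library set and bars for group means. Slc26a7, Slc47a1 and Slc4a10 are highest in set C, up to 67.6, 101.9 and 110.4 CPM, while Slc29a1 is highest in the IL6Ra/IL21R ko group, up to 306 CPM.

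With IL6Ra/IL21R ko T cells, 30 of the 133 genes were higher and 28 lower than with total T cells. Ion carriers were the largest class among the higher ones and amino acid carriers among the lower ones. This is 43.6% of them, beside 28.1% of all genes tested and 35.3% of genes with a mean of at least 10 CPM. Of all genes tested 1657 were higher and 1908 lower. This comparison and the one above share the 5 total T-cell libraries, so their values are not independent. The groups did not overlap in 22 of the 58 genes, and here too the share of all called genes was not counted. Scaled by library totals the median of all genes moved to 0.15 and the split became 45 higher and 22 lower. Within set B alone all 58 kept their sign, though its libraries were also part of the test that chose the 58. There 18 of the 133 genes passed, beside 6.70% of all genes. With the set as a term 37 passed, beside 14.3% of all genes. All 10 monocyte-derived markers were lower (356 to 1064 CPM with IL6Ra/IL21R ko, 1932 to 8988 CPM with total T cells), 9 of 11 border macrophage markers were higher, and all 9 tested fibroblast markers were higher. Microglia markers were higher in 8 of 9, and all 7 neutrophil markers tested were lower. Dendritic cell markers were mixed (2 higher and 4 lower of 10), as were endothelial markers (1 higher and 2 lower of 10) and macrophage markers (3 higher and 2 lower of 10). The part of these markers in the results was not tested.

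Amino acid carriers were the class with the most calls, 5 higher and 11 lower of 23, with a class median of -0.39 (6 higher and 8 lower with library totals). This is 69.6% called, beside 35.3% of genes with a mean of at least 10 CPM. Slc7a11 had 1.54 to 36.9 CPM with a median of 6.46 in the 7 IL6Ra/IL21R ko libraries, against 15.6 to 93.3 CPM with total T cells. Its highest IL6Ra/IL21R ko library was M4 of set C and the groups overlapped (-2.69 ± 0.77, q = 0.0107; in set B alone -2.33, q = 0.055). Slc15a3 had 157 to 217 CPM with a median of 171 with IL6Ra/IL21R ko and 306 to 506 CPM with total T cells, without overlap (-1.19 ± 0.17, q = 2.05e-05; in set B -0.97, q = 0.000617). The arginine and lysine importer Slc7a1 (-0.87 ± 0.25, q = 0.00936), the light chain for large neutral amino acids Slc7a5 (-0.73 ± 0.21, q = 0.00983) and the heavy chain Slc3a2 (-0.46 ± 0.12, q = 0.00656) were lower, each without overlap between the groups. Slc7a1 lost its call without the library M1 of the total T-cell group. The glutamine importer Slc38a1 was lower, at -0.82 ± 0.15 (q = 0.000221), as was Slc7a6, at -0.87 ± 0.22 (q = 0.00399). Higher were Slc15a2 by 1.53 ± 0.35 (q = 0.00177), with 31.6 to 132 CPM with IL6Ra/IL21R ko and 10.04 to 37.6 CPM with total T cells, and the creatine carrier Slc6a8 by 1.26 ± 0.30 (q = 0.0028).

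Metal and mitochondrial carriers that were lower included Slc30a1, with 23.6 to 42.5 CPM and a median of 35.4 in the IL6Ra/IL21R ko libraries and 70.7 to 159 CPM with total T cells. The groups lay apart (-1.74 ± 0.25, q = 2.97e-05), also within set B (-1.25, q = 0.0127). The copper importer Slc31a1 was lower, at -0.76 ± 0.15 (q = 0.000487), and stood at -0.33 in set B (q = 0.166). Slc25a5 had 138 to 194 CPM with IL6Ra/IL21R ko and 230.0 to 497 CPM with total T cells (-1.11 ± 0.16, q = 2.81e-05; in set B -0.49, q = 0.0289). Slc25a23 was higher by 1.71 ± 0.36 (q = 0.000811; in set B 0.60, q = 0.273). Of the 28 mitochondrial carriers 4 were higher and 6 lower, and of the 15 zinc carriers 3 were higher and 2 lower. The called shares were 35.7% and 33.3%, beside 35.3% of genes with a mean of at least 10 CPM. With library totals these splits were 6 and 5, and 4 and 1. Slc39a13, a zinc carrier of the Golgi, and Slc39a8 were among the zinc carriers that rose, by 0.79 ± 0.22 (q = 0.00885) and 1.15 ± 0.35 (q = 0.0147; in set B 0.29, q = 0.515). The exons of Slc39a13 overlap by 4.42% with Psmc3 on the opposite strand, which averaged 137 CPM, and the kit does not mark strand.

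Among ion and organic ion carriers the largest rises were those of Slc26a7, Slc16a9, Slc4a10 and Slc47a1. Slc26a7 had 7.19 to 38.1 CPM with a median of 11.5 with IL6Ra/IL21R ko and 0.208 to 3.64 CPM with total T cells, a log2 fold change of 3.22 ± 0.48 (q = 3.95e-05) and of 2.93 in set B alone (q = 0.0141). Slc16a9 had 7.57 to 16.6 CPM and 1.72 to 4.96 CPM in the same order (2.04 ± 0.28, q = 1.47e-05; in set B 2.09, q = 0.00483). Slc4a10 had 13.2 to 60.7 CPM with IL6Ra/IL21R ko and 4.34 to 10.9 CPM with total T cells (2.0004 ± 0.37, q = 0.000265; in set B 1.19, q = 0.0552). Slc47a1 rose by 1.87 ± 0.44 (q = 0.00233; in set B 1.85, q = 0.00982). All 4 were without overlap, and in Slc26a7, Slc4a10 and Slc47a1 the highest IL6Ra/IL21R ko library was M4, at 38.1, 60.7 and 48.7 CPM. Slc12a2 (1.43 ± 0.21, q = 3.69e-05), Slc9a9 (1.43 ± 0.24, q = 0.000111; in set B 0.88, q = 0.013) and Slc20a2 (1.16 ± 0.23, q = 0.000542) were higher, and Slc20a1 was lower (-0.88 ± 0.14, q = 5.18e-05).

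Nucleoside and vitamin carriers were higher in 5 of 9 and lower in 1, with a class median of 0.73 beside 0.03 for all genes tested. This is 66.7% called, beside 35.3% of genes with a mean of at least 10 CPM. The class median was 0.29 in set B alone, with 2 higher and 0 lower, and 0.54 with the set as a term. Slc29a1 had 218 to 306 CPM with a median of 280.1 with IL6Ra/IL21R ko and 60.1 to 179 CPM with total T cells, without overlap (1.27 ± 0.19, q = 4.53e-05; in set B 0.76, q = 0.0102). The proton-coupled folate carrier Slc46a1 was higher by 1.30 ± 0.30 (q = 0.00181), its relative Slc46a3 by 1.24 ± 0.25 (q = 0.00073) and the folate carrier Slc19a1 by 0.73 ± 0.22 (q = 0.0142). The urea carrier Slc14a1 was higher by 1.56 ± 0.41 (q = 0.00607). No sugar carrier passed.

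Set directly against mice without T cells, the IL6Ra/IL21R ko group had 1 called gene of 133 (0.752%), beside 1.16% of all genes tested and 1.49% of those with a mean of at least 10 CPM, and 0.126% of all genes were higher and 1.03% lower. It was Slc16a9, with 7.57 to 16.6 CPM and a median of 9.59 with IL6Ra/IL21R ko, and 2.51 to 8.98 CPM with a median of 5.98 with no T cells (1.13 ± 0.25, q = 0.016). The groups overlapped, and the call was lost without F2 or M2 of the no T-cell group or F2 of the IL6Ra/IL21R ko group. At an unadjusted p under 0.05 there were 23 genes of the list, beside 1368 of the 12682 genes tested. DESeq2 called 1 gene of the list, beside 2.03% of all genes. Of 7 neutrophil markers tested 6 were lower in edgeR, and no marker of the other cell types passed. The neutrophil sum was 0.096 to 4.0 CPM with IL6Ra/IL21R ko and 0.346 to 1893 CPM with no T cells.

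With IL22 ko against total T cells, none of the 133 genes passed edgeR's test, beside 0.0867% of all genes tested and 0.120% of those with a mean of at least 10 CPM, and 0.0631% of all genes were higher and 0.0237% lower. DESeq2 called 11 genes of the list, beside 5.74% of all genes. In edgeR 38 of the list had an unadjusted p under 0.05, beside 2194 of the 12682 genes tested. The largest differences at such a p were those of Slc26a7, with 6.43, 6.41 and 4.67 CPM in the 3 IL22 ko libraries and 0.208 to 3.64 CPM with total T cells (1.70 ± 0.54, q = 0.0932), and Slc4a10 (1.40 ± 0.40, q = 0.0738). Slc12a2 (1.00 ± 0.24), Slc29a1 (0.91 ± 0.22) and Slc25a5 (-0.84 ± 0.20) each had a q of 0.0573, and these genes were chosen after their values were seen. Slc30a1 had 57.2, 46.0 and 114 CPM with IL22 ko, where the male library M1 lay within the total T-cell range of 70.7 to 159 CPM and both female libraries below it. Slc7a11 showed the same order, with 5.25, 10.2 and 54.9 CPM in the IL22 ko libraries F1, F2 and M1. Without F3 of the total T-cell group 15 genes of the list passed, beside 6.10% of all genes, and without its F4 11 did, beside 4.78%. With all libraries 2 of 9 microglia markers were higher with IL22 ko in edgeR, and no marker of the other cell types passed.

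The Tbet ko, IFNg ko and IL17AF ko groups, 2 libraries each and all in set C, differed from total T cells in 43, 45 and 36 of the 133 genes. With Tbet ko 30 were higher and 13 lower, which is 32.3% beside 29.9% of all genes and 36.6% of genes with a mean of at least 10 CPM, and 14.9% of all genes were higher and 15.1% lower. With IFNg ko 24 were higher and 21 lower, 33.8% beside 36.8% and 44.0%, and 17.3% of all genes were higher and 19.4% lower. With IL17AF ko 23 were higher and 13 lower, 27.1% beside 25.1% and 31.6%, and 12.6% of all genes were higher and 12.5% lower. These shares are near or below those of genes of like level. With library totals the splits were 33 and 8, 40 and 11, and 29 and 9, and the median of all genes with IFNg ko moved to 0.12. With the library set as a term, which for these groups rests on the library M4 alone, no gene of the list passed in any of the 3, and of all genes 0.0473% passed with Tbet ko, 0.378% with IFNg ko and 0.0237% with IL17AF ko. Folds were smaller but kept their sign for the leading genes with Tbet ko, where Slc26a7 had 2.82 (q = 0.173), Slc16a9 2.06 (q = 0.197) and Slc5a6 1.60 (q = 0.209). Some called genes with smaller folds changed sign. With Tbet ko Slc12a7 went from 0.67 to -0.15, Slc38a2 from 0.67 to -0.37, Slc25a39 from -0.61 to 0.08 and Slc25a11 from -0.45 to 0.18. With IL17AF ko Slc12a7, Slc8a1, Slc25a39, Slc25a11 and Slc25a36 changed sign. When 1 library of a group was left out, the calls fell to 19 without Tbet ko F1 and 23 without F2, to 25 without IFNg ko F1, and to 12 without IL17AF ko F1 and 10 without F2. The library then left alone is assumed to vary like the other groups, and the share of all genes called fell too, to 11.7% and 15.8% without a Tbet ko library, 16.2% without IFNg ko F1, and 7.90% and 10.3% without an IL17AF ko library. The names of both Tbet ko columns carry the same number, so whether they come from separate mice cannot be told.

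By class, ion carriers were higher in 8 and lower in 2 of 18 with Tbet ko, 7 and 3 with IFNg ko and 9 and 1 with IL17AF ko. In each group 55.6% of them were called, beside 36.6%, 44.0% and 31.6% of genes with a mean of at least 10 CPM. Mitochondrial carriers were higher in 2 and lower in 5 of 28 with Tbet ko, 1 and 7 with IFNg ko and 0 and 5 with IL17AF ko. Their called share was 28.6% with IFNg ko and 17.9% with IL17AF ko, beside 44.0% and 31.6% of genes averaging at least 10 CPM. With Tbet ko it also lay below the 36.6% of such genes. With library totals the ion carriers split 10 and 2, 11 and 2, and 10 and 0, and the mitochondrial carriers 2 and 3, 2 and 3, and 1 and 3. Slc26a7 had 59.9 and 57.0 CPM with Tbet ko, 60.8 and 67.6 CPM with IFNg ko and 32.8 and 54.6 CPM with IL17AF ko, against 0.208 to 3.64 CPM with total T cells. The log2 fold changes were 4.93 ± 0.57 (q = 6.89e-06), 5.06 ± 0.57 (q = 2.9e-06) and 4.51 ± 0.56 (q = 4.93e-05). Every library of the 3 groups lay above every other library of the study apart from M4 of the IL6Ra/IL21R ko group, at 38.1 CPM. For Slc4a10 the levels were 110.4 and 83.7 CPM with Tbet ko, 60.7 and 96.0 CPM with IFNg ko and 58.2 and 101 CPM with IL17AF ko, against 4.34 to 10.9 CPM with total T cells, with log2 fold changes of 3.72, 3.41 and 3.43. For Slc47a1 they were 92.5 and 67.8 CPM, 85.8 and 101.9 CPM, and 28.7 and 78.2 CPM, against 5.33 to 8.41 CPM with total T cells. With IL17AF ko its call was lost without F2. For Slc16a9 they were 22.4 and 24.96 CPM, 13.9 and 32.2 CPM, and 17.7 and 18.7 CPM, against 1.72 to 4.96 CPM with total T cells.

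**Figure D4:**
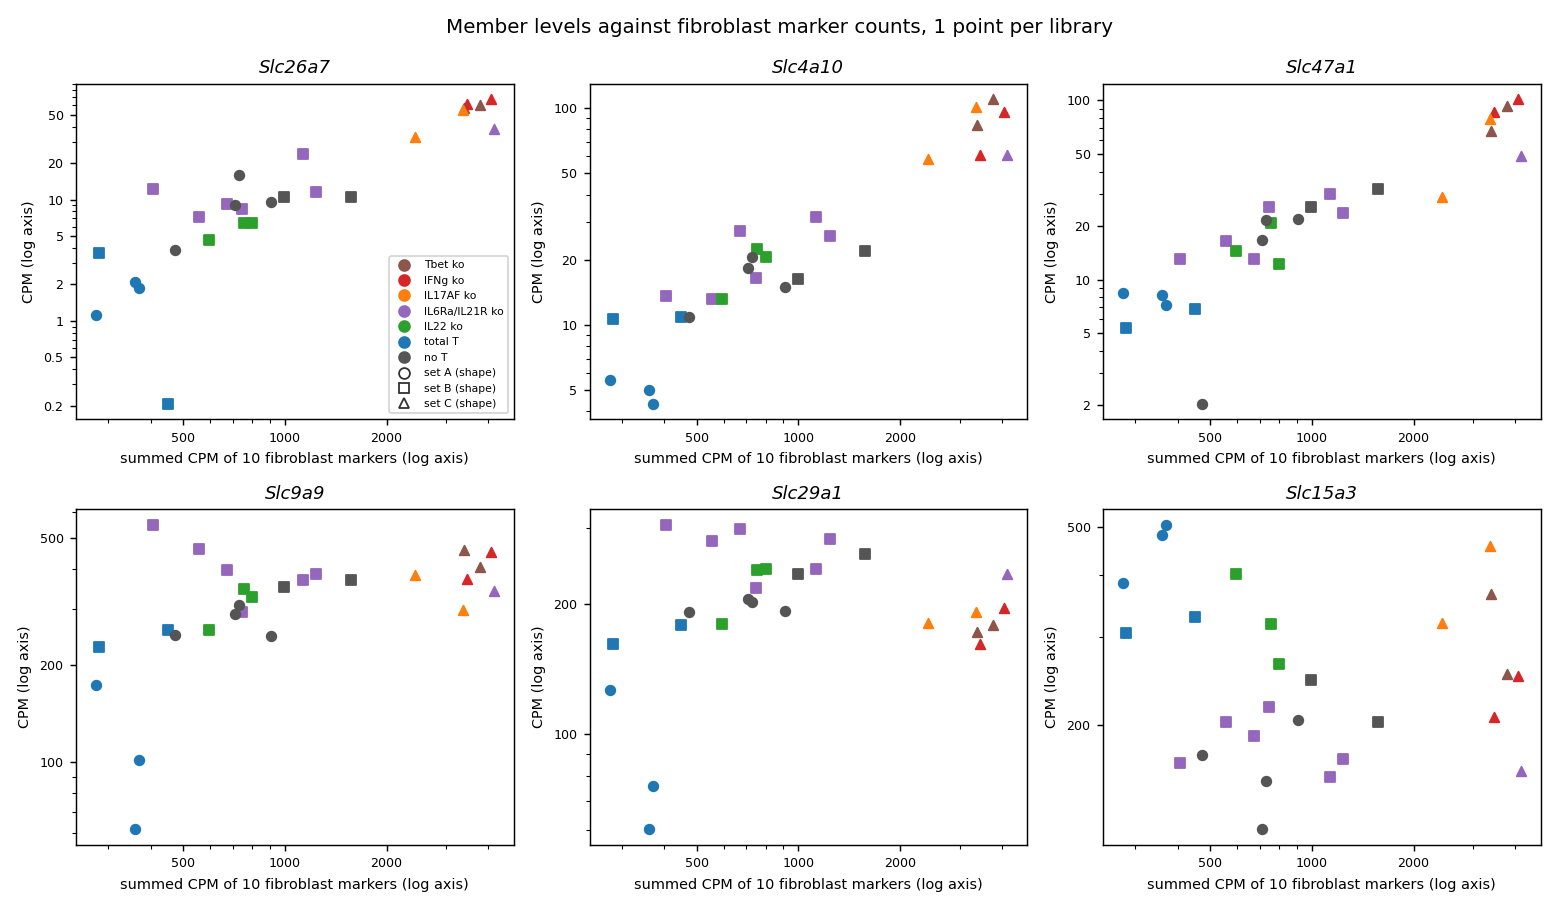
CPM of 6 genes (vertical, log axis) against the summed CPM of 10 fibroblast markers (horizontal, log axis), 1 point per library, with colours for groups and shapes for library sets. The 7 libraries of set C, at 2420 to 4151 CPM of fibroblast markers, hold the highest levels of Slc26a7 and Slc4a10, while Slc29a1 and Slc15a3 are not highest there.

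Of the 9 fibroblast markers tested 8 were higher with Tbet ko, 8 with IFNg ko and 9 with IL17AF ko than with total T cells, and 8, 9 and 6 of 11 border macrophage markers were higher in the same order of groups. Monocyte-derived markers were lower in 9, 8 and 7 of 10, at 363 to 604 CPM in sum against 1932 to 8988 CPM with total T cells. Dendritic cell markers were lower in 4, 6 and 2 of 10, and 1 of the 10 was higher in each group. Macrophage markers were higher in 1, 2 and 2 of 10 and lower in 3, 3 and 1. Microglia markers were higher in 5, 4 and 3 of 9, and neutrophil markers lower in 1, 4 and 2 of 7 tested. The part of these markers in the values of the carriers was not tested. The biotin importer Slc5a6 was higher by 2.04 ± 0.26 with Tbet ko (q = 1.91e-05), 1.88 ± 0.26 with IFNg ko (q = 2.4e-05) and 1.90 ± 0.26 with IL17AF ko (q = 0.000104). The magnesium carrier Slc41a1 had 60.3 and 44.9 CPM with Tbet ko, 93.3 and 57.8 CPM with IFNg ko and 40.9 and 54.1 CPM with IL17AF ko, against a mean of 31.6 ± 7.61 CPM with total T cells (SD, n = 5). It lay above every total T-cell library in all of them and passed in each (0.78 ± 0.23, q = 0.0118; 1.30 ± 0.22, q = 0.000154; 0.63 ± 0.23, q = 0.0449). Slc25a23 was higher by 2.18 ± 0.42 with IFNg ko (q = 0.000422) and 1.57 ± 0.43 with Tbet ko (q = 0.00754). The vitamin C importer Slc23a2 and the taurine importer Slc6a6, chosen after their values were seen, were higher in each of the 3 groups, at 205 to 289.9 CPM and 555 to 666 CPM, against 109.5 to 149 CPM and 384 to 513 CPM with total T cells.

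The ADP/ATP carrier Slc25a5 had 111 to 162 CPM over the 6 libraries of the Tbet ko, IFNg ko and IL17AF ko groups, against 230.0 to 497 CPM with total T cells, with log2 fold changes of -1.32 ± 0.25 with Tbet ko (q = 0.000469), -1.49 ± 0.25 with IFNg ko (q = 0.00012) and -1.23 ± 0.24 with IL17AF ko (q = 0.00131). Slc30a1 was lower with Tbet ko, at -1.51 ± 0.39 (q = 0.00583), and with IFNg ko, at -2.002 ± 0.41 (q = 0.000667), and with IL17AF ko, at 37.9 and 74.1 CPM, it did not pass. The Tbet ko call was lost without F1. The arginine importer Slc7a1 stood at -1.05 ± 0.37, -1.25 ± 0.38 and -1.12 ± 0.37 (q = 0.0346, 0.0119 and 0.0292) and Slc7a6 at -1.21 ± 0.33, -0.95 ± 0.32 and -1.04 ± 0.32 (q = 0.00727, 0.0236 and 0.02), in the order Tbet ko, IFNg ko and IL17AF ko. The light chain Slc7a5 was lower with Tbet ko (-0.88 ± 0.30, q = 0.0295) and with IL17AF ko (-0.93 ± 0.30, q = 0.0264). The calls of Slc7a1 were lost without either Tbet ko library, F1 of the IFNg ko group, either IL17AF ko library, or F2 (Tbet ko) or M1 (Tbet ko and IL17AF ko) of the total T-cell group. Those of Slc7a6 were lost without Tbet ko F1, either IFNg ko library, either IL17AF ko library or, for IFNg ko, F2 of the total T-cell group, and those of Slc7a5 without either library of its group or F2 of the total T-cell group. The phosphate carrier Slc25a3 was lower with Tbet ko (-0.72 ± 0.14, q = 0.000642), IFNg ko (-0.97 ± 0.14, q = 3.92e-05) and IL17AF ko (-0.68 ± 0.14, q = 0.00153). With IL17AF ko the myo-inositol importer Slc5a3 was lower, at -1.56 ± 0.53 (q = 0.0322), a call lost without either IL17AF ko library or F2 of the total T-cell group.

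Over all 7 groups together, 66 of the 133 genes differed at a q under 0.05, which is 49.6% beside 38.3% of all genes tested and 48.8% of genes with a mean of at least 10 CPM. By class it was 18 of 23 amino acid and peptide carriers, 12 of 18 ion carriers, 6 of 9 nucleoside and vitamin carriers, 6 of 11 carriers of monocarboxylates and organic ions, 12 of 28 mitochondrial carriers, 3 of 6 metal carriers, 3 of 15 zinc carriers, 2 of 10 endoplasmic reticulum and Golgi carriers, 1 of 5 sugar carriers and 1 of 5 carriers of fatty acids, choline, urea and amines. The lowest q were those of Slc16a9 (6.98e-06), Slc26a7 (7.46e-06) and Slc4a10 (8.36e-06). The single sugar carrier was Slc2a9, and the single gene of the lipid class was the fatty acid carrier Slc27a4, with 40.8 to 51.7 CPM with Tbet ko, 33.6 to 41.7 with IFNg ko, 38.7 to 39.4 with IL17AF ko, 44.7 to 56.9 with IL6Ra/IL21R ko, 41.3 to 48.0 with IL22 ko, 36.0 to 53.0 with total T cells and 47.0 to 57.6 with no T cells. Summed over the mitochondrial carriers, the level was 1391 to 1555 CPM in the Tbet ko, IFNg ko and IL17AF ko groups, 1413 to 1908 CPM with IL6Ra/IL21R ko, 1711 to 2024 CPM with IL22 ko, 1926 to 2339 CPM with total T cells and 1651 to 1778 CPM with no T cells. The corresponding sums of the amino acid carriers were 3598 to 3945, 2477 to 3200, 2862 to 3498, 3079 to 3625 and 2660 to 3214 CPM in the same order of groups, and in both classes the ranges of the first 3 groups and of another group overlapped.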

How the data were processed

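Per the labels' protocols, dural macrophages were sorted after saline perfusion and digestion, and RNA libraries were made with a NEBNext kit that does not mark strand and read as single ends. The submitters' processing notes name GRCm38, the aligner STAR (2.4.0j), the counter featureCounts and DESeq2 (1.20.0), without their settings. The deposited values are whole-number counts per gene in 1 table of 27 libraries. The table is described as normalized counts, but its values are whole and its library totals differ from 6902602 to 19966749, so they were analysed as counts, and a rescaling before deposit would make their error differ from that of raw counts. Of the 41388 gene identifiers 40254 had a symbol, and those without held 0.106 to 0.143% of the counts and were left out.

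Genes with a mean of at least 10 normalized counts (12682, all 133 carriers among them) were tested with edgeR 4.0.16 in R 4.3.3, by the quasi-likelihood test with TMM factors, a term for group and a term for sex over all 27 libraries, and Benjamini-Hochberg adjustment over all genes tested. CPM were computed from the TMM-scaled library totals. Alternatives were DESeq2 1.42.0 and its size factors, library totals alone, other filters, females only, no sex term, only the groups compared, the library set as a term or 1 set alone, each library left out, and other limits of the list. On simulated counts for 12682 genes, 54% of 2-fold and 82% of 4-fold changes were recovered with total T cells against no T cells, 52% and 81% with IL6Ra/IL21R ko against total T cells, and 36% and 69% with IFNg ko against total T cells. Of the genes called, 6.21%, 2.92% and 1.87% had not been changed. The simulation gave unchanged genes 1 mean over all libraries and held no library sets. These shares therefore need not hold for the real counts, above all where group and set coincide.

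Column names tie each library to a group and sex but not to a title's replicate number, so libraries are numbered within group and sex (F1, M1). Nothing says that each came from a separate mouse, and some names leave pools possible, so p-values measure the spread between libraries. Replicate pairs differed beyond counting noise, with a chi-square per degree of freedom of 8.97 to 138 over 52 pairs. The genes, classes and marker lists were chosen with earlier results of these data known. Genes named are up to 10 called genes of largest change in each direction for the first 2 comparisons and up to 5 for the others, with the most abundant and the lowest-q gene of each class. Other genes were named after their values were seen.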

Additional observations from a re-analysis of the deposited data

Results flagged for a closer look

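In 8 of the 129 gene and group combinations tested, 1 library stood apart from the others of its group by more than Dixon's 95% limit. Chance alone gives about 1 in 20 such groups. The library M4 of the IL6Ra/IL21R ko group, the only one of that group in set C, was the one apart in 4 of them. Its level was 36.95 CPM for Slc7a11, where the other 6 libraries had 1.54 to 16.7 CPM, and 60.71 CPM for Slc4a10, where they had 13.2 to 31.6 CPM. It was 43.35 CPM for Slc39a14, where they had 15.2 to 25.4 CPM, and 138.0 CPM for Slc25a5, below their 177 to 194 CPM. Over all 133 genes M4 lay above the range of the other 6 libraries in 26, below it in 43 and within it in 64. In the same group the library M2 had 120.5 CPM of Slc20a1, where the others had 82.6 to 93.6 CPM. In the no T-cell group the library M1 had 15.82 CPM of Slc2a9, above 9.92 to 11.6 CPM, and 5.192 CPM of Slc46a1, below 18.01 to 22.6 CPM. The library M2 of that group had 6.688 CPM of Slc6a8, below 13.9 to 17.4 CPM.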

How the results depend on the processing

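Of 1383 values, under the alternatives, of called genes named by the rule above, 1260 kept direction and call, 123 lost the call and 0 turned round. Fits with 1 library left out gave many of these values, with 648 kept and 35 lost. With the set as a term 38 were kept and 33 lost, and in set B alone 10 were kept and 31 lost. The genes were picked for the largest called changes in these same libraries, so the kept directions are not independent of that choice. Some other called genes did turn round with the set as a term, among them Slc12a7 and Slc25a39. Of the counts of called genes, the 52 with total T cells against no T cells became 30 with females only and 2 in set B alone. Of all genes 12.4% and 0.745% were then called. With 1 library left out the 52 became 35 to 55. The 58 with IL6Ra/IL21R ko against total T cells became 35 with females only, 37 with the set as a term and 18 in set B alone. Of all genes 15.8%, 14.3% and 6.70% were then called. With 1 library left out the 58 became 45 to 66. The count of 0 with IL22 ko became 21 with no filter on low counts and 11 with DESeq2, beside 4.84% and 5.74% of all genes. With 1 library left out it was 0 to 15. With the set as a term the counts with Tbet ko, IFNg ko and IL17AF ko were 0 each. With only the groups compared they were 20, 20 and 14, beside 15.2%, 15.2% and 9.34% of all genes. With 1 library left out they were 19 to 51, 25 to 53 and 10 to 42. The single call with IL6Ra/IL21R ko against no T cells became 6 with no filter, 2 with a limit of 5 CPM for the list, 0 with a limit of 20 CPM, females only, no sex term, the set as a term, only the groups compared or set B alone, and 0 to 2 with 1 library left out. The 66 genes that differed over all groups became 35 with the set as a term and 48 to 69 with 1 library left out. The causes were not tested, beyond that females only and set B hold fewer libraries. No paired analysis was possible because the column names carry no replicate number of the titles.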
